A study of Mus musculus with 8 samples.

Results

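Peaks of N6-methyladenosine (m6A), the most common methylated base inside mRNA, were examined in 8 imprinted mouse genes, Peg10, Peg3, Rtl1, Igf2r, Grb10, Plagl1, Zdbf2 and Mest, of which Peg10 and Rtl1 descend from a retrotransposon. A peak belonged to a gene when its midpoint lay within the annotated span of the gene on the same strand. In all, 29 of 17068 peaks met this rule. They lay in 5 of the 8 genes, and Rtl1, Plagl1 and Mest held none. The choice of genes did not use measured values, but it was made with earlier results of these data known, so counts and shares are given as a description and no test was made.

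The peaks came from chromatin-associated RNA, in which transcripts that are still being made and spliced are enriched, of the E14 mouse embryonic stem cell line grown with serum and LIF on gelatine. The 8 libraries formed 4 groups of 2 replicates: SySy_ChrMeRIP, RNA precipitated with the m6A antibody of Synaptic Systems, against SySy_Input, and Abcam_ChrMeRIP, RNA precipitated with the Abcam antibody, against Abcam_Input. The cells carried no further treatment, and no other genotype was compared. The study's methods name a different library kit for each antibody, whereas the labels name 1 kit, and an effect of antibody and of kit cannot be told apart. The values were 3 lists of peak intervals (mm10) called on the pooled duplicates. Cfg1 held 5277 peaks called with both antibodies, and Cfg2 held 5472 peaks called with SySy where Abcam signal stayed below the calling threshold. Cfg3 held 6319 peaks called with Abcam only. The study ranks the 3 lists as high, medium and low confidence, with almost no SySy signal at Cfg3 peaks. Of the 29 peaks counted here 9 were in Cfg3, among them all those of Igf2r and Grb10. No library had a value of its own, so depth and the spread between replicates are unknown here. Of the marker genes of embryonic stem cells, 9 of 10 held a peak, among them Pou5f1, Nanog and Sox2. Of those of fibroblasts or feeder cells 0 of 8 did, of trophoblast 1 of 5 (Eomes) and of extraembryonic endoderm 0 of 5. Across the series 25.1% of all coding genes held one, and lists of 5 or 8 are too short to set apart from that share.

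An imprinted gene is transcribed mainly from the allele of one parent, because DNA methylation laid down in the germ line marks the alleles differently. Peg10, Peg3, Rtl1, Plagl1, Zdbf2 and Mest are expressed from the paternal allele, and Igf2r from the maternal one in most tissues. Grb10 is maternally expressed in most tissues and paternally expressed in neurons. m6A is deposited on nascent RNA by the METTL3 and METTL14 complex, mostly at the consensus DRACH (first base any but C, second A or G, then A and C, last any but G, which makes 18 pentamers), of which GGACT, written here in DNA letters, is the preferred form. In mRNA the mark is known for gathering in long internal exons, in last exons and around stop codons. The lists pool both alleles, so nothing in them separates the parental copies.

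Peg10 and Rtl1 stem from the gag and pol genes of a Ty3/gypsy-type retrotransposon. Peg10, which is needed for placental development, still makes its second protein by the retroviral device of ribosomal frameshifting, in which the ribosome slips back 1 nt at a slippery heptamer and reads on from the first reading frame (ORF1) into the second (ORF2). The heptamer GGGAAAC occurred 1 time in the joined reading frames of Peg10, at chr6:4755327-4755333 on GRCm38, the assembly of the mm10 coordinates. The 4 coding peaks of Peg10 are printed with it, since they show that peaks lay in both reading frames and none lay over the slippery site. Capitals mark the heptamer in the first sequence and every DRACH match in the others.
Peg10 slippery site, chr6:4755316-4755345 (plus strand): aattcgccgccGGGAAACtccccggccccg
Peg10 ORF1, Cfg1 peak, chr6:4754438-4754594 (plus strand): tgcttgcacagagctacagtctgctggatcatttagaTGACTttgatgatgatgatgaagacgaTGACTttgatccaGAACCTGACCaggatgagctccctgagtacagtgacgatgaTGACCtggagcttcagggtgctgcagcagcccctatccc
Peg10 ORF2, Cfg2 peak, chr6:4755476-4755638 (plus strand): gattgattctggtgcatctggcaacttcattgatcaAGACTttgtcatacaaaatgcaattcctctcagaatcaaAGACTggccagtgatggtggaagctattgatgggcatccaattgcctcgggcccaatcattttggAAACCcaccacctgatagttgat
Peg10 ORF2, Cfg1 peak, chr6:4755640-4755790 (plus strand): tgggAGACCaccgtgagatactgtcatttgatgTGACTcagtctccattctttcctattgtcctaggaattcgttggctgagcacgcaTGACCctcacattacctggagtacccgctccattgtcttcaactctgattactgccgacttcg
Peg10 ORF2, Cfg2 peak further downstream, chr6:4756750-4756885 (plus strand): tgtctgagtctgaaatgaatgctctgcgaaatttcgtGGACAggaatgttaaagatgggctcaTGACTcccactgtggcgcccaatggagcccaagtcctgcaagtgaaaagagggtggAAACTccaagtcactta

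None of these 4 coding peaks held GGACT. Among the DRACH forms they held were TGACT in the ORF1 peak and 2 of the ORF2 peaks, and GGACA in the last of them. The ORF1 peak carried 5 DRACH matches, with TGACT in 2 copies.

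Peg10 (ENSMUSG00000092035.8, chr6:4747306-4760517, plus strand) held 15 peaks, of which 10 were in Cfg1, 3 in Cfg2 and 2 in Cfg3. Across the series, 25.1% of coding genes held a peak of any list, 12.1% a Cfg1 peak, 13.7% a Cfg2 peak and 13.3% a Cfg3 peak. At least 10 peaks were held by 0.82% of coding genes, and 15 or more by 0.287% (63 of 21951). With adjoining subpeaks of 1 called region counted once, Peg10 held 8 regions, and 0.62% of coding genes held 8 or more. Counting a peak for each gene whose span held it, 9 genes had more Cfg1 peaks than Peg10 and 6 had the same number. All 15 peaks were exonic. The annotation writes the frameshift as a gap of 2 nt in the transcript with the longest coding sequence, and in the transcript without such a gap the 15 peaks all lay in the last exon of 6394 nt. Per length, Peg10 held 2.25 exonic peaks per kb of exon, against a median of 0.503 in the 4607 genes with an exonic peak, and 98.6% of those genes had a lower value. With each called region counted once it held 1.2 per kb, and 96.6% of them were lower. Peaks called with SySy covered 29.2% of its mRNA, where the median of the 4030 genes with an exonic SySy peak was 8.26%.

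**Figure D1:**
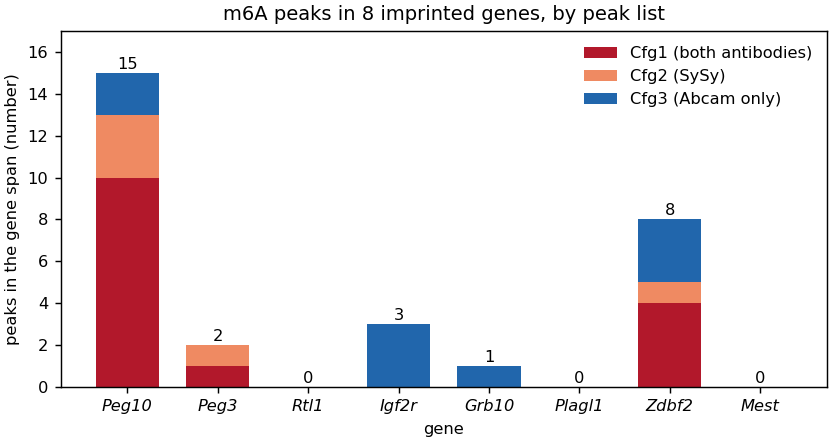
Number of m6A peaks in the span of each of the 8 genes, stacked by list (red, Cfg1; orange, Cfg2; blue, Cfg3), with the total above each bar. Peg10 holds 15 peaks and Zdbf2 8, Igf2r and Grb10 hold Cfg3 peaks only, and Rtl1, Plagl1 and Mest hold 0.

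Of the 3 parts of the Peg10 mRNA the 3′ UTR had the most peaks per kb. ORF1, 1131 nt long, held 1 peak, or 0.884 peaks per kb. ORF2 (1889 nt) held 3, or 1.59 per kb. The 3′ UTR (3277 nt) held 11, or 3.36 per kb, and SySy-called peaks covered 40.8% of it, against 23.8% of ORF2 and 13.9% of ORF1. The density of DRACH did not follow the same order, with 22.1 matches per kb in ORF1, 10.6 in ORF2 and 19.2 in the 3′ UTR. Within the 3′ UTR, the last SySy-called peak ended at 1868 nt, and all 9 SySy-called peaks lay up to there. The remaining 1409 nt held the 2 Cfg3 peaks. That boundary was set by the peaks themselves, so the densities of both parts are not compared. Within 200 nt of the stop codon lay 1 of the 15 midpoints, 137 nt past it (6.67%, 95% Wilson interval 1.19 to 29.8%), against 22.2% of exonic peaks of coding genes across the series. Distances to the Peg10 stop codon were taken from the end of ORF2, which was counted as coding, not from the ORF1 end at chr6:4755351.

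The 3′ UTR held a called region of 921 nt (chr6:4757561-4758481) that had been split into 6 adjoining subpeaks, each 1 nt from the next, and all 6 were in Cfg1. None of the 6 held GGACT. Among 7475 regions called with SySy in the series, 35 were split into 6 or more subpeaks, and 3 of these had all subpeaks in Cfg1. The other 2 lay in Tnrc6c (7 subpeaks) and Spen (6 subpeaks), and in each of them 2 subpeaks held GGACT. The subpeaks held 2 to 5 DRACH matches each, and a window of 30 nt around 1 match is shown for each, since this region held the most subpeaks of any in the 8 genes. The match, in capitals, was the one most like GGACT in a set order of the 18 forms, and of equal ones the nearest to the midpoint.
Peg10 3′ UTR, subpeak a, chr6:4757557-4757586 (plus strand): ataaaggaagccAGACTtttcggtgcagta
Peg10 3′ UTR, subpeak b, chr6:4757780-4757809 (plus strand): atgtgtacccaaGAACTctgacatagcatc
Peg10 3′ UTR, subpeak c, chr6:4757935-4757964 (plus strand): ggtacatcaaaaAGACTtctaaatttggta
Peg10 3′ UTR, subpeak d, chr6:4758103-4758132 (plus strand): cattgtgcatctGGACAtccatcaaccgcc
Peg10 3′ UTR, subpeak e, chr6:4758240-4758269 (plus strand): tcttgaagatatGAACTtctaagaatggag
Peg10 3′ UTR, subpeak f, chr6:4758421-4758450 (plus strand): aaaggagcagtaGGACAtaacatggttttt

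Another Cfg1 peak began 329 nt after that stretch (chr6:4758811-4758978), and adjoining it lay a Cfg2 peak (chr6:4758980-4759108) whose GC content was 21.7% and which held no DRACH match. The lowest GC content of any Cfg2 peak was 21.2%, and 96.8% of genic Cfg2 peaks held a DRACH match.

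**Figure D2:**
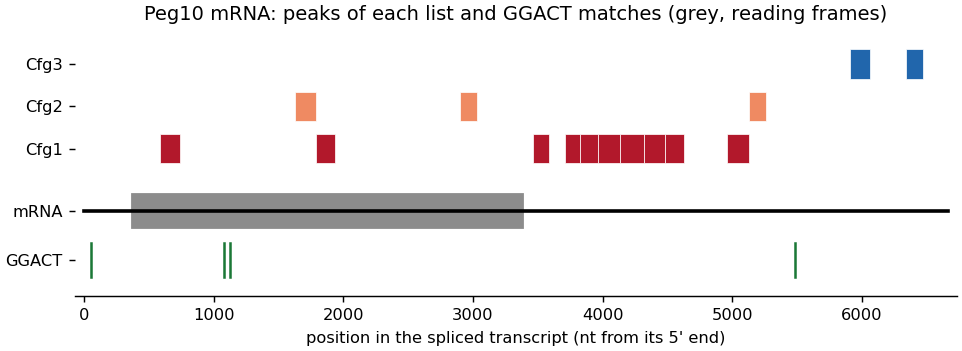
Peaks along the spliced Peg10 mRNA, with position in nt from its 5′ end. Boxes are peaks, in a row for each list, the grey bar is the joined reading frames and green ticks are the 4 GGACT matches, none of which lies in a peak.

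The Peg10 mRNA had 4 GGACT matches, or 0.6 per kb, where the median of genes with an exonic peak was 1.09 per kb. Another match in the annotated transcript exists only because the modelled gap of 2 nt joins its bases, and was left out. All 4 lay outside peaks, and the nearest was 294 nt from the midpoint of a SySy-called peak. Thus 0 of 15 Peg10 peaks held GGACT (95% Wilson interval 0 to 20.4%), against 28.5% of genic peaks in the whole series (37.8% in Cfg1, 31.8% in Cfg2 and 17.1% in Cfg3). Of the 63 genes with 15 or more peaks, Peg10 was the only one with no GGACT in any of them. Of the 184 genes with 10 or more peaks, 15 had none, Peg10, Map1b, Prrc2c and Tcf20 among them. DRACH in any form was present in 13 of its 15 peaks (86.7%), where 96.2% of genic peaks had it. The forms found most in its 13 SySy-called peaks were TGACT (7 peaks, 53.8%) and AGACT (5 peaks, 38.5%). In genic SySy-called peaks outside the 8 genes TGACT was found in 27.5%, AGACT in 32.7% and GGACT in 34.8%. Both GGACT matches of ORF1 are shown, since they lay 44 nt apart in coding sequence with no peak over them.
Peg10 ORF1, first GGACT, chr6:4754919-4754948 (plus strand): tgggcctgttgtGGACTactccaatgcatt
Peg10 ORF1, second GGACT, chr6:4754963-4754992 (plus strand): aggacctggattGGACTgagcctgccctga

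Both Cfg3 peaks of Peg10 lay near the 3′ end of the mRNA, 2597 and 3015 nt past the stop codon, and differed in base composition from each other. The first (chr6:4759759-4759916) held no DRACH match and 6 copies of the heptamer GGATAAG, searched on the strand of the peak. GGATAAG was in 1.1% of Cfg3 peaks and 0.76% of all peaks, and no other peak held more than 2 copies. A window around 1 copy, in capitals, is printed to show the repeat.
Peg10 3′ UTR, Cfg3 repeat, chr6:4759830-4759859 (plus strand): ggataagcataGGATAAGttagatcacata
The second (chr6:4760189-4760321) was 55.6% C, against a median of 16.4% over the 6319 Cfg3 peaks, of which 2 had a higher share. It held 4 DRACH matches, none of them with G as the base before the central A.

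Zdbf2 (ENSMUSG00000027520.15, chr1:63273265-63314576, plus strand), which encodes a protein with a DBF-type zinc finger, held 8 peaks: 4 in Cfg1, 1 in Cfg2 and 3 in Cfg3. Its mRNA of 12629 nt has a last exon of 11937 nt that holds nearly all of the coding sequence and the whole 3′ UTR. All 8 peaks had their midpoint in coding sequence, and 7 of them in this exon. The 3′ UTR, 4631 nt long, held 0 peak midpoints and 3 of the 5 GGACT matches of the mRNA. Coding peaks made up 100% of Zdbf2 peaks (8 of 8, 95% Wilson interval 67.6 to 100%) and 26.7% of Peg10 peaks (4 of 15, 10.9 to 52%), against 63.3% of exonic peaks of coding genes across the series, where the 3′ UTR held 32.7%. Per length, Zdbf2 held 0.633 exonic peaks per kb of exon, which 61.8% of genes with an exonic peak fell below. That rank rested on its Cfg3 peaks. With SySy-called peaks only it held 0.396 per kb, which 42.1% of the 4030 genes with an exonic SySy peak fell below.

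The Cfg1 peaks of Zdbf2 were spread along the exon, at 7049, 2737, 1766 and 52 nt before the stop codon. The first lay near the upstream end of the exon, and the last spanned the stop codon. A Cfg2 peak lay 201 nt downstream of the first, and a Cfg3 region of 2 adjoining subpeaks (chr1:63305511-63305715) lay between the first and second. GGACT was in 1 of the Cfg1 peaks, and so in 1 of 8 peaks in all (12.5%, 95% Wilson interval 2.24 to 47.1%). That peak held 10 DRACH matches, more than any other Zdbf2 peak, and is printed with the first one, with every DRACH match in capitals, to set a GGACT peak beside one without it.
Zdbf2 exon 7, Cfg1 peak with GGACT, chr1:63308066-63308292 (plus strand): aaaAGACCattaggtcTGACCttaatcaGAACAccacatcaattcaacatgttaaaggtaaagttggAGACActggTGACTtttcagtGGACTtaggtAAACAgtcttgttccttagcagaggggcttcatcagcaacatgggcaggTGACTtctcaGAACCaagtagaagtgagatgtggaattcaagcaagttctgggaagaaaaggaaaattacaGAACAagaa
Zdbf2 exon 7, first Cfg1 peak, chr1:63302772-63303021 (plus strand): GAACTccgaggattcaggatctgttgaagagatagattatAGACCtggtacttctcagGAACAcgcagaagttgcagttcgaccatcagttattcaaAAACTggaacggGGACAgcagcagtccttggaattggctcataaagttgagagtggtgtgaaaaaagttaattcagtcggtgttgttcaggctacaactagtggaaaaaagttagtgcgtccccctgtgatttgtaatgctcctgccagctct

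The remaining Cfg3 peak of Zdbf2 (chr1:63290681-63290812) covered the end of exon 5, which contains the start codon, with 102 of its 132 nt in the exon and 30 nt in the intron that follows. It was the only one of the 29 peaks that crossed a splice site. Its GGACA match ended 1 nt before the end of the exon, and the window printed here gives the first 6 bases of the intron in capitals.
Zdbf2 exon 5, 5′ splice site, chr1:63290765-63290794 (plus strand): atgaagaacaatggacagGTAAATatgtag

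Peg3 (ENSMUSG00000002265.16, chr7:6703892-6730431, minus strand), which encodes a zinc finger protein with a role in maternal behaviour and growth, held 1 Cfg1 and 1 Cfg2 peak. Both had the largest width a refined peak can have, 250 nt, and both held GGACT. The Cfg1 peak (chr7:6708761-6709010) lay in the coding part of the last exon, 1379 nt before the stop codon, and the Cfg2 peak (chr7:6707136-6707385) in the 3′ UTR, 246 nt past it. The mRNA had 9 GGACT matches, of which 3 fell inside these 2 peaks, 1 in the first and 2 in the second. The last exon was 7840 nt long. Peg3 held 0.23 exonic peaks per kb of exon, and 13.3% of genes with an exonic peak had fewer. SySy-called peaks covered 5.75% of its mRNA, against a median of 8.26% in genes with an exonic SySy peak. The coding peak is printed whole and the 3′ UTR peak as 1 window around GGACT, since together with the Zdbf2 peak they are the GGACT-bearing peaks of the 8 genes.
Peg3 exon 9, Cfg1 peak, every DRACH match in capitals, chr7:6708761-6709010 (minus strand): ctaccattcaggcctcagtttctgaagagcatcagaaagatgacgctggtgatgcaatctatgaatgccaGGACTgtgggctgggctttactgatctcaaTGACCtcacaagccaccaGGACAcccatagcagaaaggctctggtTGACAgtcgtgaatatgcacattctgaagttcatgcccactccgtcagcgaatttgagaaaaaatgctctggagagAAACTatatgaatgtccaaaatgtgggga
Peg3 3′ UTR, Cfg2 peak, GGACT in capitals, chr7:6707295-6707324 (minus strand): cattgaacgcagGGACTctttcagttttag

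**Figure D3:**
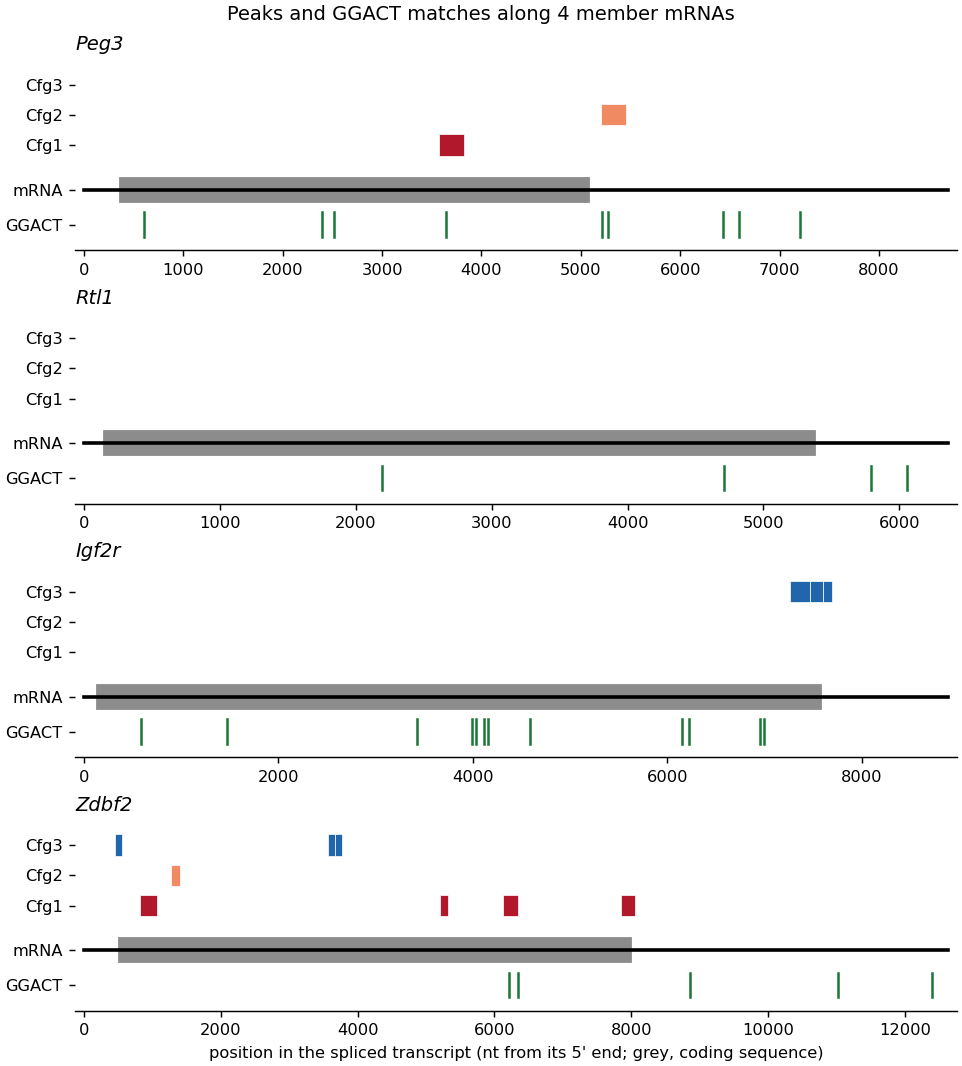
Peaks and GGACT matches along the spliced mRNAs of Peg3, Rtl1, Igf2r and Zdbf2, with position in nt from the 5′ end. Boxes are peaks, in a row for each list, grey bars are coding sequence and green ticks GGACT. Zdbf2 peaks have their midpoints in coding sequence, Igf2r peaks gather at the stop codon, and Rtl1 has 4 GGACT matches and no peak.

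Igf2r (ENSMUSG00000023830.14, chr17:12682406-12769664, minus strand), the receptor that carries IGF2 and mannose 6-phosphate-tagged enzymes to lysosomes, held 3 peaks, all in Cfg3. In the series 5.46% of coding genes held Cfg3 peaks only. The 3 were adjoining subpeaks of 1 region of 439 nt (chr17:12683596-12684034) in exon 48, the last, with midpoints 218 and 47 nt before the stop codon and 67 nt past it, so that 2 of the 3 lay within 200 nt of it. Across the series, 15.5% of exonic Cfg3 peaks of coding genes lay within 200 nt of the stop codon. None of the 3 held GGACT, although the mRNA had 12 matches, all in coding sequence and the nearest to the stop codon 590 nt before it. Each held GGACA, and the subpeak that is coding throughout is shown with its DRACH matches in capitals.
Igf2r exon 48, Cfg3 subpeak, chr17:12683823-12684034 (minus strand): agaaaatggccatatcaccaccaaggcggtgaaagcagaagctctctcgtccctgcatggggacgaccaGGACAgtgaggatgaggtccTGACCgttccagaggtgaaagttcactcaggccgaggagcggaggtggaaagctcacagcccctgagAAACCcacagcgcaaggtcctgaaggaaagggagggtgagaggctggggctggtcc
The noncoding RNA Airn runs through part of Igf2r on the opposite strand, and no antisense peak lay within the span of Igf2r.

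Grb10 (ENSMUSG00000020176.17, chr11:11930508-12038683, minus strand), an adaptor protein that restrains insulin and growth factor receptor signalling, held 1 peak, in Cfg3. It was the only intronic peak of the 29. Its midpoint lay in intron 1, 42758 nt from the 5′ splice site and 6760 nt from the 3′ splice site. In Cfg3 42.6% of genic peaks were exonic, in Cfg2 88.7% and in Cfg1 93.3%. The Grb10 interval was 74.1% purine, where the median of Cfg3 peaks was 63.5% and 666 of 6319 had a higher share. It held 3 DRACH matches, in capitals, and no GGACT, and it is printed whole to show the run of purines.
Grb10 intron 1, Cfg3 peak, chr11:11994356-11994513 (minus strand): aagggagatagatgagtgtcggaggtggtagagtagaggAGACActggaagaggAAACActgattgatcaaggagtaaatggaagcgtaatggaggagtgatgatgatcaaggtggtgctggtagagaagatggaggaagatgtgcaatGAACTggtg

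Rtl1, the closest relative of Peg10 among the 8 genes, which is needed in placental capillaries, held 0 peaks in its mRNA of 6358 nt with 4 GGACT and 132 DRACH matches (chr12:109589193-109600330, minus strand). The microRNA genes that lie antisense to it held none either, as no peak of either strand fell within its span. Plagl1, a zinc finger regulator of cell cycle arrest and of other imprinted genes (chr10:13060504-13131694, plus strand), held 0 peaks with 5 GGACT matches in 5260 nt. Mest, an enzyme of the alpha/beta hydrolase fold (chr6:30723547-30748465, plus strand), held 0 peaks with 1 GGACT match in 2665 nt. No peak lay within 10000 nt of either end of these genes on their strand, and the same held for the other 5. With no RNA level in the lists, a transcript without the mark and one too rare for a peak to be called cannot be told apart.

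Over the 8 genes together, 28 of 29 peaks were exonic (96.6%, 95% Wilson interval 82.8 to 99.4%), against 73.8% of the 15193 other genic peaks (73.1 to 74.5%) and 73.9% of all genic peaks. Of SySy-called peaks 20 of 20 were exonic (83.9 to 100%), against 91% of the other genic ones. In Cfg3 8 of 9 were (56.5 to 98%), against 42.5%. Exons over 1000 nt held 27 of the 28 exonic peaks (96.4%, 82.3 to 99.4%), against 69.1% of the other exonic peaks of coding genes (68.2 to 69.9%). Such exons make up 1207 and 5182 of the 6662 nt of Peg10, 11937 of 12629 in Zdbf2 and 7840 of 8694 in Peg3. In Igf2r they make up 1721 of 8887. The share was not corrected for this length, so it does not show a preference for long exons. Coding sequence held 15 of the 28 (53.6%, 35.8 to 70.5%), against 63.3% of the others. The pooled share joined 4 of 15 in Peg10 (26.7%) with 11 of 13 in the other member genes (84.6%). Within 200 nt of the stop codon lay 4 of the 28 (14.3%, 5.7 to 31.5%), against 22.2% of the others. GGACT was in 3 of the 29 (10.3%, 3.58 to 26.4%), against 28.6% of the other genic peaks (27.9 to 29.3%). Peg10 supplied 15 of the 29, and without it GGACT was in 3 of 14 (21.4%, 7.57 to 47.6%). Those 14 joined 3 of 7 SySy-called peaks (42.9%, 15.8 to 75%), against 34.8% of the other genic ones, with 0 of 7 in Cfg3. The lower share in SySy-called peaks of the 8 genes thus came from Peg10. The intervals cover counting error only, and peaks of 1 gene share a transcript and are not independent.

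**Figure D4:**
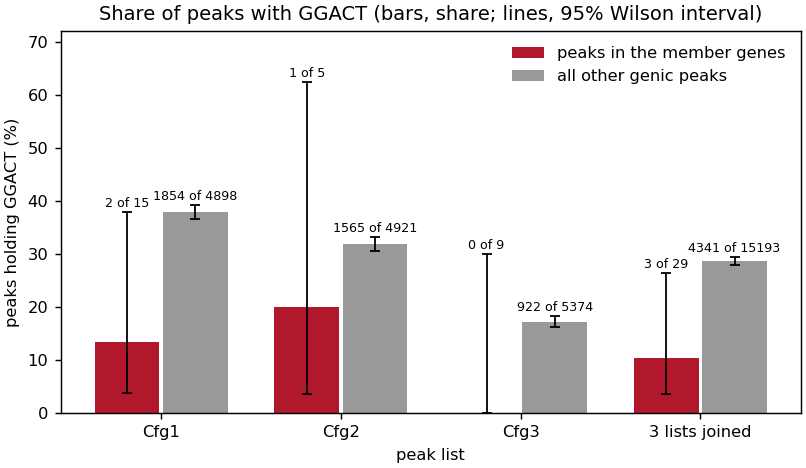
Percentage of peaks that hold GGACT in the 8 genes (red) and in all other genic peaks (grey), for each list and for the 3 lists joined. Bars are shares and lines 95% Wilson intervals, with the number of peaks above each bar. The shares are 2 of 15 against 37.9% in Cfg1, 1 of 5 against 31.8% in Cfg2 and 0 of 9 against 17.2% in Cfg3. Without Peg10, none of whose peaks hold GGACT, they are 2 of 5, 1 of 2 and 0 of 7.

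The peaks of the 8 genes were 94 to 250 nt wide with a median of 151 nt, against a median of 160 nt over all peaks. In Cfg1 the 15 peaks had a median width of 161 nt, against 198 nt over the whole list. Peg10 supplied 10 of these, 6 of them subpeaks of 1 region. The other 5 were 250 nt (Peg3) and 250, 109, 227 and 206 nt (Zdbf2) wide, so the lower median came from Peg10. The 29 peaks held 2.46 DRACH matches per 100 nt, against 2.53. Their median GC content was 45.8%, against 50.3% over all peaks, and the 15 Cfg1 peaks had a GC content of 39.1 to 50.3%, all below the 50.4% median of that list. The mRNAs themselves were long, with a median exonic length of 6510 nt over the 8, against 3855 nt in genes with an exonic peak. The plot of exonic peaks against exonic length shows Peg10 above most genes of its length, and Igf2r and Peg3 below the median number of peaks per kb.

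**Figure D5:**
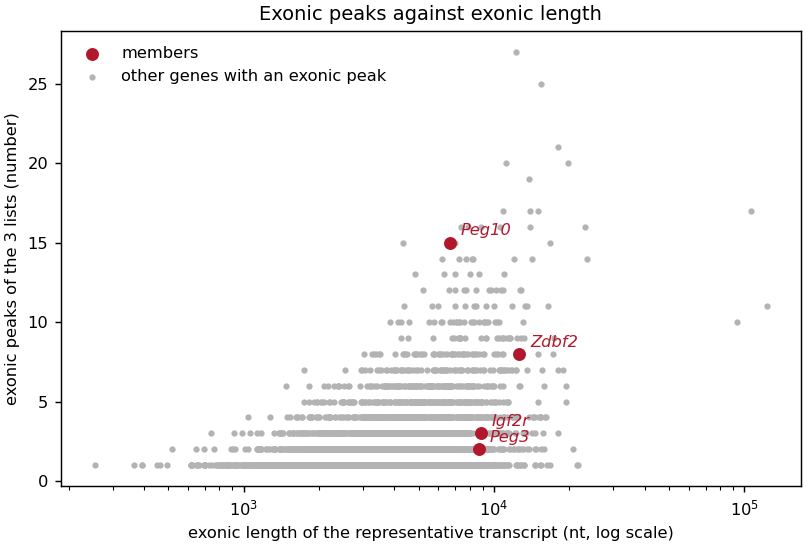
Number of exonic peaks of the 3 lists against exonic length (log axis) for the 4607 genes with an exonic peak. Red points are the 4 member genes with exonic peaks and grey points all others. Peg10 has 15 peaks in 6662 nt, Zdbf2 8 in 12629 nt, Igf2r 3 in 8887 nt and Peg3 2 in 8694 nt.

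By the sum of the differences in the 3 counts, the coding genes most like Peg10 were Zfp646 (9 Cfg1, 4 Cfg2 and 2 Cfg3 peaks), Amer1 (8, 3 and 0) and Asxl2 (7, 2 and 2). GGACT was in 9 of 15 Zfp646 peaks, 1 of 11 Amer1 peaks and 1 of 11 Asxl2 peaks. No coding gene had the same 3 counts as Peg10, while 5 had those of Zdbf2. Of these 5, the nearest in exonic length were Gm38394, Rest, a repressor of neuronal genes, and 9930021J03Rik. GGACT was in 3 of 8 Gm38394 peaks, 2 of 8 Rest peaks and 3 of 8 peaks of 9930021J03Rik.

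A SySy-called peak was held by 3 of the 8 genes and by 14 of 59 other imprinted genes. A peak of any list was held by 5 of the 8 and by 17 of the 59 (28.8%). Of all coding genes 19.7% held a SySy-called peak and 25.1% any. The 59 also contain noncoding RNA genes, so the sets differ in kind. Ppp1r9a, which encodes a cytoskeletal scaffold and lies in the Peg10 cluster, held 7 Cfg1, 4 Cfg2 and 4 Cfg3 peaks, with GGACT in 6 of the 15 and 7 of the 15 exonic. The splicing factor retrogene Zrsr1 held 6 Cfg1 and 2 Cfg3 peaks, all exonic and none with GGACT. The ubiquitin ligase gene Ube3a held 2 peaks of each list. The long noncoding RNA Kcnq1ot1 held 3 Cfg1, 1 Cfg2 and 6 Cfg3 peaks. H13, a signal peptide peptidase, held 4 peaks, of which 3 lay in Mcts2, an imprinted retrogene inside its intron. Those 3 peaks were counted for both genes.

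Among 32 other genes derived from retrotransposons or domesticated from transposons, 8 held a peak (25%), a share next to the 25.1% of all coding genes. Nynrin led with 5 Cfg1, 2 Cfg2 and 1 Cfg3 peaks, all exonic and 2 with GGACT. Arc, whose protein forms capsids that carry RNA between neurons, held 1 peak of each list, and Moap1, a mediator of apoptosis, held 2 Cfg2 peaks. Pnma2 held 3 Cfg3 peaks and 1 Cfg1 peak, and Pnma5 2 Cfg3 peaks. Among 26 regulators of imprinting, 17 held a peak (65.4%, against the same 25.1%). These 26 were not matched to all coding genes in mRNA length or in RNA level, which the lists do not give. Zfp445, a zinc finger protein that maintains imprints, held 5 Cfg1 and 3 Cfg2 peaks, Arid4b 2, 3 and 3 peaks of Cfg1, Cfg2 and Cfg3, and the insulator protein gene Ctcf 3 Cfg1 peaks and 1 Cfg3 peak. The DNA demethylation enzymes Tet1 and Tet2 each held 5 Cfg3 peaks, beside 1 SySy-called peak in Tet1 and 4 in Tet2. The histone methyltransferase gene Ehmt1 held 2, 1 and 2 peaks of the 3 lists.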

How the data were processed

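RNA bound to chromatin in E14 cells was precipitated with 2 m6A antibodies and sequenced beside its input, in 8 libraries. The authors deposited 3 lists of peak intervals, whose score column was 0 throughout, so that no peak height was at hand. Peaks were called with MACS2 2.1.1 on duplicates, split between summits, trimmed around each summit and given a strand, as the study's methods state. The submitters' processing notes also name HOMER. The lists hold pooled calls, so the depth per library is unknown here.

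Intervals were placed by their midpoint on GRCm38.p6, whose coordinates are those of mm10, using GENCODE vM21 (35325 genes, of which 21951 coding). Small structured RNAs, pseudogenes and the gene segments of antigen receptors were not used. The transcript with the longest coding sequence stood for a gene, and those of the 8 genes matched the reference transcripts base for base in 8 of 8. The strand of 1 Cfg2 entry, written with an extra character, was taken as plus. Motifs were searched on the strand of the peak. Shares carry 95% Wilson intervals, for counting error only. Placement and motif counts were tested on simulated data first.

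The members, gene lists and rules for naming genes were chosen with earlier results of these data known. All members were named with each of their peaks. From each other list came the up to 5 genes with most SySy-called peaks (at least 2) and the up to 2 with most Cfg3 peaks, and for each member with 5 or more SySy-called peaks the 3 coding genes with the nearest counts. The genes named for their lack of GGACT or their long regions, the repeat and the printed windows outside that rule were chosen after their values were seen. Scripts ran in Python 3.11.15 (pysam 0.24.0, numpy 2.4.6, scipy 1.17.1, matplotlib 3.10.9).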

Additional observations from a re-analysis of the deposited data

How the results depend on the processing

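Of 81 values under alternative settings, 66 stayed close to the reported value and 15 moved outside. Close meant within 1.5 times the reported count, or within the 95% interval of the reported share or density. With only the list called with both antibodies, the count of peaks was 15 in the 8 genes, 3 genes held one, Zdbf2 held 4, and its density was 0.317 peaks per kb. With subpeaks of one called region counted once, the 8 genes held 19 peaks and Peg10 held 8, and the density, recounted so after seeing the data, was 1.2 peaks per kb in Peg10 and 0.113 in Igf2r. With DRACH in place of GGACT, the share with a match was 93.1% over all lists, 95% in SySy-called peaks and 86.7% in Peg10. With GGACT required within 50 nt of the midpoint it was 3.45% over all lists and 5% in SySy-called peaks. The span of RefSeq genes, an alternative chosen after seeing the data, gave 13 peaks in Zdbf2 and 8 Cfg2 peaks in the 8 genes. In the longest coding transcript the coding share was 42.9%, since that of Peg10 holds ORF1 only. The lack of GGACT in Peg10 peaks was unchanged in joined regions, with peaks of at least 100 nt, and with peaks extended by 50 nt, the last also chosen after seeing the data. No stricter threshold could be set, as the score was 0, and no replicate could be left out. No paired analysis was possible because the lists hold no value per library. With depth unknown, the absence of a peak does not show the absence of the mark.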

Other observations

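RefSeq annotates 3 of its 10 Zdbf2 transcripts from a start 72907 nt upstream of the GENCODE start, at chr1:63200358, which is outside the span used in the report. Between both starts lay 5 more peaks on the plus strand, in no annotated exon of Zdbf2 in RefSeq and in no GENCODE gene of that strand. The SySy-called ones were 1 Cfg1 peak (chr1:63232321-63232496) and 3 Cfg2 peaks (chr1:63231426-63231675, chr1:63232851-63232950 and chr1:63232952-63233154), which lay within a stretch about 32 kb from the upstream start. GGACT was in 3 of these 4, where it was in 1 of the 5 SySy-called peaks of the GENCODE span. The Cfg3 peak (chr1:63219039-63219211) held none. These peaks were found after the data were seen and were not tested, and the transcript they belong to is not given by the lists.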
